A study of Arabidopsis thaliana with 3 samples.

Results

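The genes described here drive or restrain the entry of plant cells into division: a cyclin of the A type (CYCA1;1, AT1G44110), cyclins of the B type (CYCB1;1, AT4G37490, with CYCB1;2, AT5G06150, and CYCB2;1, AT2G17620), a D-type cyclin (CYCD3;1, AT4G34160), kinases of the CDKB class (CDKB1;1, AT3G54180, with CDKB2;1, AT1G76540, and CDKB2;2, AT1G20930) and the kinase inhibitors SIM (SIAMESE, AT5G04470) and SMR1 (AT3G10525, also called LGO). They were chosen by a list of identifiers and not by a threshold on their values, with earlier results of these data known, and make up 10 of the 33557 genes measured. RNA was sequenced from whole Arabidopsis thaliana plants 11 days old in 3 groups: skip mutants after 4 h in MS liquid medium with 200 mM NaCl, wild type after the same salt treatment, and wild type in MS medium without the salt. Which skip allele and which wild-type accession were grown is not stated in the labels. SKIP encodes a component of the spliceosome, and the study's title places it in salt tolerance through alternative splicing. The values analysed sum all transcripts of a gene, so splicing is not measured.

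Cyclins bind and activate cyclin-dependent kinases, and different cyclins do so at different points of the cell cycle. D-type cyclins act at the start of the cycle, where they link growth signals to DNA synthesis, while A-type and B-type cyclins and the plant-specific CDKB kinases act around DNA synthesis and in the passage into mitosis. SIM and its relatives, the SMR proteins, bind these kinase complexes and hold mitosis back, and in leaf hairs and the epidermis they favour endoreduplication, in which DNA is copied without division. CYCD3;1 is therefore not a mitotic cyclin in the strict sense, although it is described with them here. In a young seedling the transcripts of the mitotic cyclins come mainly from the few dividing cells of the shoot and root tips, young leaves and the stomatal lineage. In RNA from whole plants, fewer dividing cells and less RNA per dividing cell cannot be told apart.

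Each group has 1 deposited value per gene in which 2 replicates were merged, so the spread between plants is unknown, no error can be given and no test was possible. The unit was read as FPKM, a fragment count scaled to library size and transcript length, which allows levels of different genes to be compared. Differences are given as the log2 ratio of FPKM + 1, and a 2-fold rule, which is no test, calls a gene higher or lower where this ratio reaches 1 or -1. Both deposited tables hold salt-treated wild type, with values 1.105 times higher in the first, so ratios were formed within a table. All 10 genes had an FPKM of at least 1 in all 3 groups. The lowest, CYCB2;1, rested on an estimated 94 fragments in salt-treated wild type and the highest, SMR1, on an estimated 1204, and these estimates bear on counting error only. The SKIP transcript was at 41.6 FPKM in salt-treated skip, against 49.0 FPKM in wild type with salt (log2 ratio -0.23), so its total does not check the genotype.

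The mitotic genes are known to share a short promoter element, the mitosis-specific activator or MSA element, which is bound by MYB3R transcription factors. Its core, AACGG, was searched on both strands in the 250 bases before each annotated gene start. It was present in 6 of the 10 windows (60%), against 20.6% of the 26686 windows of nuclear protein-coding genes. Windows with 3 or more copies made up 3 of the 10 and 0.723% of all. The windows of the A-type and B-type cyclins are shown because these genes had most of the copies, and that of SIM because it had none. Sequences are from the RefSeq assembly TAIR10.1, run 5′ to 3′ along the strand of the gene, and end at the base before the gene start. Capitals mark the core on either strand, where CCGTT is its reverse complement. The windows are chr1:16777353-16777602 on the minus strand for the A-type cyclin, chr4:17624309-17624558, chr5:1861704-1861953 (both minus) and chr2:7663805-7664054 (plus) for the B-type cyclins in the order below, and chr5:1267417-1267666 (minus) for SIM.
CYCA1;1: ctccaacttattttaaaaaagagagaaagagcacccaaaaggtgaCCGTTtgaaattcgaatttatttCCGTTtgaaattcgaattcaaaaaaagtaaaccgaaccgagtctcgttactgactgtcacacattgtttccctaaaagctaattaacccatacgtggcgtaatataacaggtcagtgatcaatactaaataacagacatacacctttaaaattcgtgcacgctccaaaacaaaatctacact
CYCB1;1: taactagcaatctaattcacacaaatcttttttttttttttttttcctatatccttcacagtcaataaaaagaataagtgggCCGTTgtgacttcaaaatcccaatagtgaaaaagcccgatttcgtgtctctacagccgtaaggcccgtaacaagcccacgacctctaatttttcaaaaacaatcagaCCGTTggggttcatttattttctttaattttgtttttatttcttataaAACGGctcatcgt
CYCB1;2: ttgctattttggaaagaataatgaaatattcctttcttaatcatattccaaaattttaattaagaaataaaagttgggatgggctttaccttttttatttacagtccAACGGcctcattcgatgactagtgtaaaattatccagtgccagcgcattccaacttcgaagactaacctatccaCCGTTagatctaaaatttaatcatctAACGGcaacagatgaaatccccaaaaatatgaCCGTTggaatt
CYCB2;1: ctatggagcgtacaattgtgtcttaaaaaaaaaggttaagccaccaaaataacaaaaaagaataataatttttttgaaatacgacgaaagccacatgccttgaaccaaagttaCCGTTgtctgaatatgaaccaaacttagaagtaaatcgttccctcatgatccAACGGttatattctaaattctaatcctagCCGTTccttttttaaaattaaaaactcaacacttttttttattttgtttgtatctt
SIM: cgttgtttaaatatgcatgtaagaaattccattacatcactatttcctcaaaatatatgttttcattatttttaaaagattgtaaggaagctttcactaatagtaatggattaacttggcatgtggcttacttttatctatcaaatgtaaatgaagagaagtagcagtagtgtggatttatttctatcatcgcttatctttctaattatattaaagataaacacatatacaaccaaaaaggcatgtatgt

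The A-type window held 2 copies, the B-type windows 3, 4 and 3 in the order shown, and no copy overlapped another. The D-type cyclin and CDKB2;2 had 1 copy each. The other CDKB kinases, SIM and SMR1 had none in this window. A match of these letters describes the sequence and does not show that a factor binds there. Among the listed B-type cyclins outside the 10 genes, 3 of 6 windows held the core, and all 3 of these had at least 3 copies. The core was found in 7 of 10 further genes of mitosis and cytokinesis, 3 of 9 further A-type cyclins, 0 of 9 further D-type cyclins and 0 of 8 further CDK and CKS genes. It was also found in 5 of 8 genes of the KRP inhibitors and WEE1, where 2 had at least 3 copies, in 5 of 12 further SIM and SMR genes and in 3 of 4 MYB3R genes, so it was not limited to genes of mitosis.

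**Figure D1:**
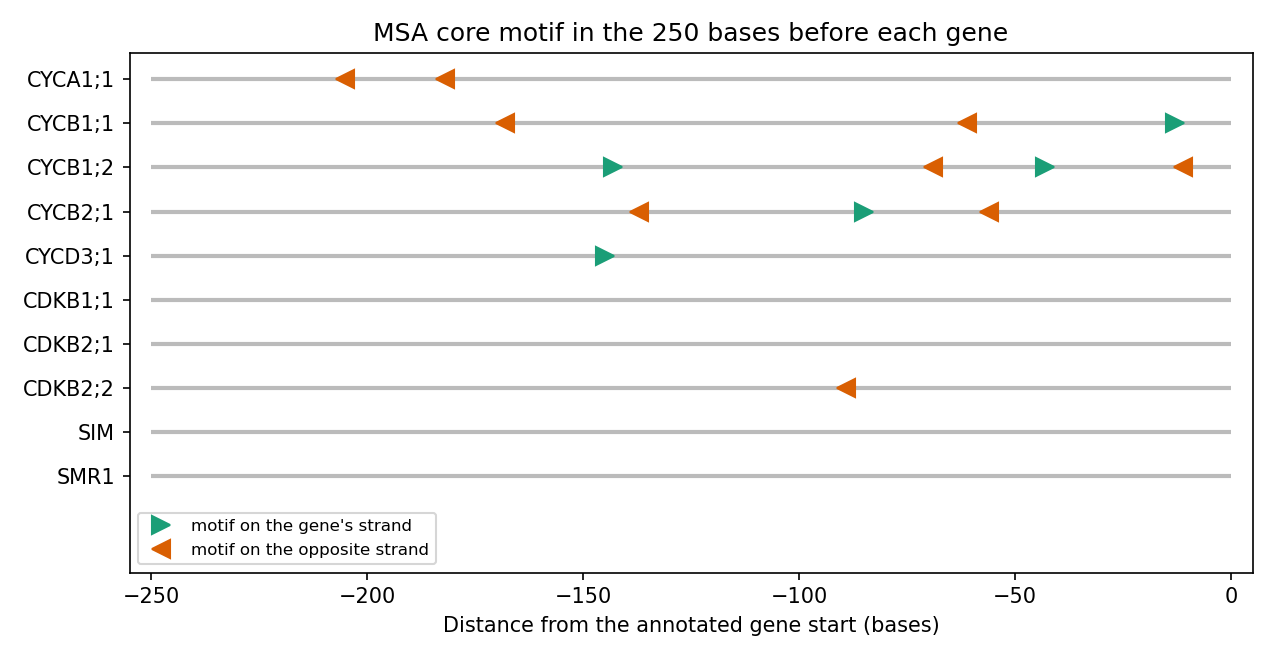
Positions of the MSA core (AACGG or its reverse complement) in the 250 bases before the annotated start of each gene. Each row is 1 gene, the horizontal axis is the distance from the gene start in bases, triangles pointing right mark copies on the gene's strand and triangles pointing left copies on the other strand. The B-type cyclins carry 3 or 4 copies each, while 4 of the 10 windows are empty.

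Salt was first compared with no salt in wild type. All 8 cyclin and CDKB genes and SIM had less transcript with salt, at 47.0% to 66.3% of the level without it, while SMR1 was at 108.8%. The B-type cyclin CYCB1;2 was lower by the 2-fold rule and no gene was higher. That is 1 of 10 genes, against 3.81% of all 33557 genes and 6.29% of the 20309 genes at or above 1 FPKM in a group. For higher genes the share was 6.04% of all genes. The median log2 ratio of the 10 genes was -0.70, while that of the genes at or above 1 FPKM was -0.01 and that of all genes was 0. Ratios below 0 were found for 9 of the 10 genes and for 51.1% of the genes at or above 1 FPKM.

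Among the cyclins of the passage into mitosis, the largest difference was that of CYCB1;2, with 8.89 FPKM in salt-treated wild type and 18.9 FPKM in untreated wild type, a log2 ratio of -1.01. It lies just past the rule, and 11.9% of its transcript sequence is also found in the annotated locus AT1G34460, which was at 0.589 FPKM with salt and 0.877 FPKM without. Its relative CYCB1;1, whose promoter is a common marker of dividing cells, was at 4.10 FPKM with salt and 7.28 FPKM without, a ratio of -0.70. The A-type cyclin, CYCA1;1, was at 5.60 FPKM with salt and 10.9 FPKM without, a ratio of -0.85. With salt these 3 genes stood at 47.0%, 56.3% and 51.5% of the untreated level in the order given.

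CYCB2;1, a B-type cyclin of the other subgroup, had the lowest level of all 10 genes, with 1.38 FPKM in salt-treated and 2.08 FPKM in untreated wild type. Its ratio of -0.37 is held down by the added 1, and on the plain scale it was at 66.3% of the level without salt. The D-type cyclin CYCD3;1, which responds to cytokinin and sugar, was at 12.9 FPKM with salt and 21.4 FPKM without, a ratio of -0.69. Its annotated span overlaps the end of AT4G34150, a gene on the same strand that was at 84.7 FPKM with salt and 28.5 FPKM without. The longest transcripts share no 50-base stretch (0%), and the part of that overlap in the value was not tested.

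The CDKB kinases, whose transcripts appear from DNA synthesis to mitosis, were close to each other. CDKB1;1 was at 7.30 FPKM with salt and 13.6 FPKM without, a ratio of -0.82. CDKB2;1 was at 13.3 FPKM with salt and 21.4 FPKM without, a ratio of -0.64. CDKB2;2 was at 8.13 FPKM with salt and 13.3 FPKM without, a ratio of -0.65. It shares 10.6% of its transcript with AT1G20925 on the opposite strand, which was at 0.111 FPKM with salt and 0 without. All of them stayed within the 2-fold rule, at 53.6% to 62.4% of the untreated level.

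The inhibitors differed from each other. SIM was at 11.5 FPKM in salt-treated and 19.9 FPKM in untreated wild type, a ratio of -0.74 that is as far below 0 as those of the cyclins. SMR1, which sets the number of giant cells in the sepal and leaf epidermis, was at 38.0 FPKM with salt and 34.9 FPKM without, a ratio of 0.12. It was the most abundant of the 10 genes in each group. Both are single-exon genes that overlap a locus annotated on the opposite strand, AT5G04475 for SIM with 25.4% of the transcript shared and AT3G10527 for SMR1 with 32.7%. These loci were not analysed here and the labels do not state the strand setting of the libraries, so reads from either strand may be in both values.

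**Figure D2:**
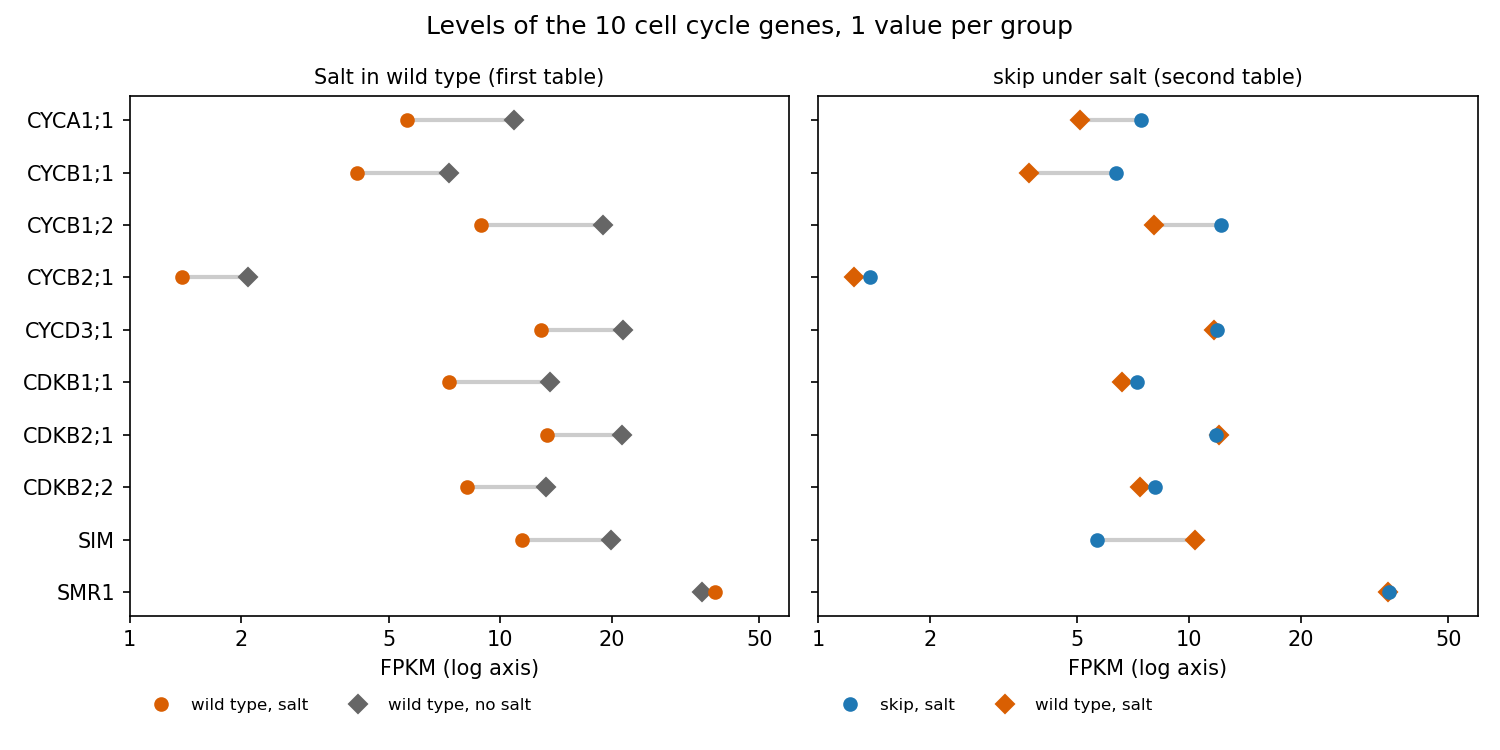
FPKM of the 10 genes on a log axis. On the left, circles are salt-treated and diamonds untreated wild type, and on the right, circles are salt-treated skip and diamonds salt-treated wild type, with 1 deposited value per point and no error. All genes but SMR1 lie lower with salt, and in skip the first 3 rows lie to the right of wild type and SIM to the left, at 5.65 against 10.4 FPKM.

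The second comparison asks how skip differed from wild type under the same salt treatment. No gene of the 10 passed the 2-fold rule in either direction, against 1.63% of all genes higher and 2.61% lower in skip. Within the rule the genes formed groups: the A-type cyclin and the B1 cyclins were at 146.4% to 170.8% of the wild-type level, the remaining cyclins and the CDKB kinases at 98.0% to 110.3%, SMR1 at 100.5% and SIM at 54.4%. The median log2 ratio of the 10 genes was 0.10, against -0.08 for the 19764 genes at or above 1 FPKM in a group. Ratios above 0 were found for 8 of the 10 genes and for 42.2% of those genes. An untreated skip group was not analysed here, so a difference that is there without salt and a different response to salt cannot be told apart.

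CYCB1;1 had the widest difference upward, with 6.34 FPKM in skip and 3.71 FPKM in wild type, a log2 ratio of 0.64. Of the genes at or above 1 FPKM, 93.6% had a lower ratio than this. CYCB1;2 was at 12.2 FPKM in skip and 8.05 FPKM in wild type, a ratio of 0.55, and CYCA1;1 at 7.42 FPKM in skip and 5.07 FPKM in wild type, a ratio of 0.47. All 3 have several copies of the MSA core in the windows shown above. So has CYCB2;1, which was at 1.38 FPKM in skip and 1.25 FPKM in wild type, a ratio of 0.08.

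The D-type cyclin and the kinases were nearly level between the genotypes. CYCD3;1 was at 11.9 FPKM in skip and 11.6 FPKM in wild type, a log2 ratio of 0.03. CDKB1;1 was at 7.25 FPKM in skip and 6.60 FPKM in wild type, a ratio of 0.12. CDKB2;1 was at 11.8 FPKM in skip and 12.1 FPKM in wild type, a ratio of -0.03, and CDKB2;2 at 8.11 FPKM in skip and 7.35 FPKM in wild type, a ratio of 0.13. The ratios of the D-type cyclin and of CDKB2;1 are so near 0 that their sign turns with the scaling, the D-type cyclin to -0.07 with scaling to nuclear genes and the kinase to 0.04 with centring on the median gene.

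SIM was at 5.65 FPKM in skip and 10.4 FPKM in wild type, a log2 ratio of -0.78, and 8.06% of the genes at or above 1 FPKM had a lower ratio. SMR1 was at 34.5 FPKM in skip and 34.4 FPKM in wild type, a ratio of 0.01 that becomes -0.10 with scaling to nuclear genes. On the deposited scale none of the other 9 genes had a ratio under -0.03. The estimated number of fragments behind the SIM values was 138 in skip and 338 in wild type. The estimated depth of the 2 columns differs, so these numbers do not give the ratio of levels.

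**Figure D3:**
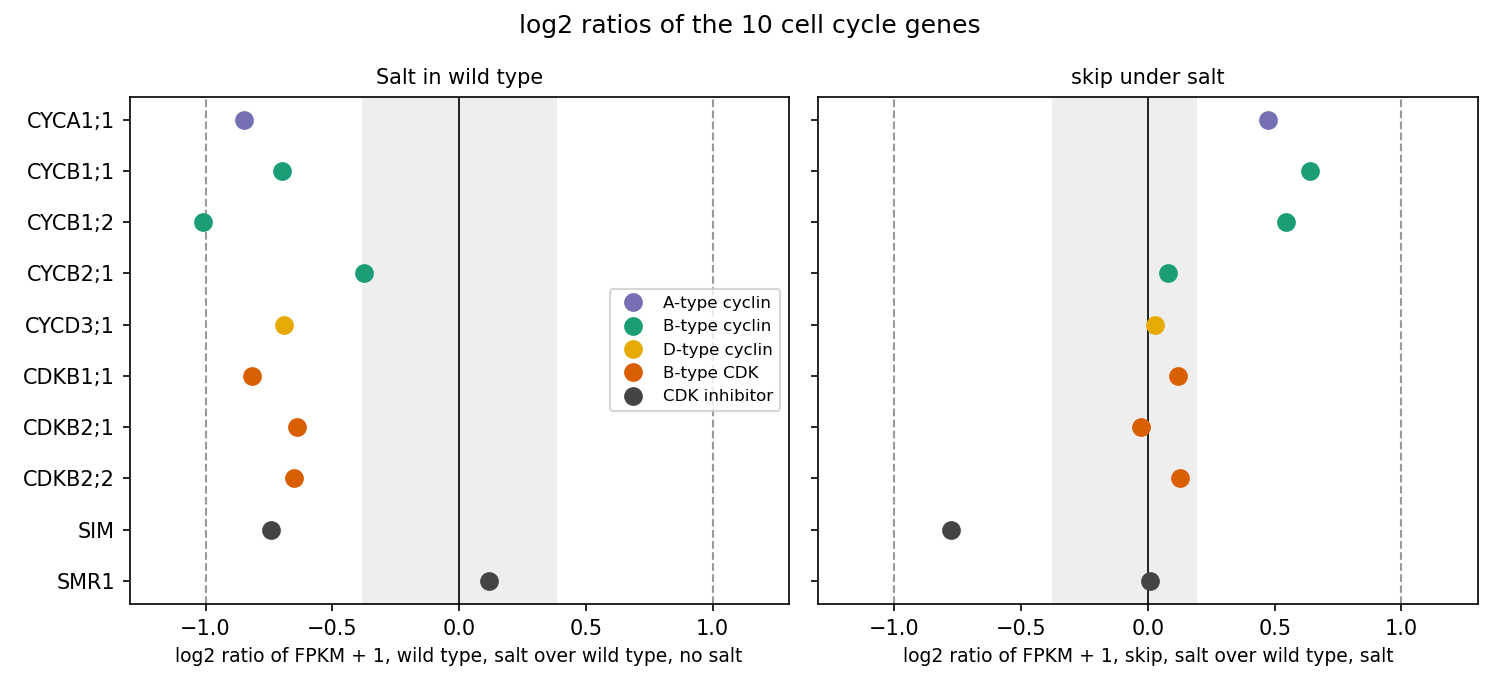
log2 ratios of FPKM + 1 for the 10 genes, for salt in wild type on the left and for skip under salt on the right, coloured by protein class. Dashed lines mark the 2-fold rule and the grey band holds the middle 50% of genes at or above 1 FPKM. With salt, 8 genes lie left of the band, and in skip 3 cyclins lie right of it and SIM left of it.

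Both comparisons share salt-treated wild type, so a value of that group moves the ratios in opposite directions. Set on the scale of the first table through the factor of 1.105, which is a description across tables that were scaled separately, the levels in salt-treated skip can be placed beside untreated wild type. CYCB1;1 was at 7.00 FPKM in salt-treated skip, 4.10 FPKM in salt-treated wild type and 7.28 FPKM in untreated wild type. Salt-treated skip thus had 96.1% of the untreated wild-type level of this cyclin, and 71.2% to 75.3% for the other A-type and B-type cyclins. For the D-type cyclin and the CDKB kinases salt-treated skip had 58.9% to 67.3% of the untreated level, against 53.6% to 62.4% in salt-treated wild type. SIM was at 6.24 FPKM in salt-treated skip, 11.5 FPKM in salt-treated wild type and 19.9 FPKM in untreated wild type, so that skip had 31.4% of the untreated level. On this scale SIM, with a log2 ratio of -1.53, was the only one of the 10 genes at least 2-fold lower, against 6.49% of all genes, and none was at least 2-fold higher, against 6.11%.

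Other genes of the cell cycle were then examined. In 11 lists of cell cycle regulators and DNA damage genes, 89 genes lie outside the 10. With salt 8 of the 89 were at least 2-fold lower and 1 was higher, with a median log2 ratio of -0.25. The shares of all genes were 3.81% lower and 6.04% higher. In skip 1 of the 89 was higher and 1 lower, with a median of -0.02, against 1.63% of all genes higher and 2.61% lower. All 9 listed B-type cyclins had ratios below 0 with salt, and 3 passed the rule, or 2 with scaling to nuclear genes. Beside CYCB1;2 these were CYCB2;4, with 3.28 FPKM with salt and 8.001 FPKM without, and CYCB1;3, with 3.06 FPKM with salt and 7.47 FPKM without. In skip the same 9 genes had ratios above 0, from 0.03 to 0.68, and none passed the rule, while 7 of the 9 stayed above 0 with scaling to nuclear genes, which shifts log2 ratios of FPKM by -0.11. The widest was CYCB2;4, at 5.37 FPKM in skip and 2.97 FPKM in wild type.

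A-type and D-type cyclins were less uniform. Of 10 A-type cyclins, 8 had ratios below 0 with salt, and CYCA3;1 passed the rule with 1.87 FPKM with salt and 5.03 FPKM without. In skip 4 had ratios above 0 and 5 below, and none passed. CYCA3;3 was listed at 0 in every group. The 10 D-type cyclins were all within the rule in both comparisons, with medians of -0.12 for salt and -0.18 for skip. Of 11 CDK and CKS genes, where CKS proteins are small partners of the kinases, all had ratios below 0 with salt and 2 passed the rule, or 10 and 1 with scaling to nuclear genes. CKS2 was at 15.7 FPKM with salt and 41.2 FPKM without, and CDKB1;2 at 3.36 FPKM with salt and 7.89 FPKM without. In skip 0 of these 11 passed, with a median of -0.03 that becomes 0.04 with centring on the median gene.

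Genes that act at the end of mitosis and in the division of the cell mostly had ratios below 0 with salt as well, and 3 of them passed the rule. Of 8 activators and inhibitors of the anaphase-promoting complex, which marks cyclins for destruction, 2 were at least 2-fold lower and 6 were within the rule. CDC20.1 was at 15.8 FPKM with salt and 43.7 FPKM without, and CDC20.2 at 6.04 FPKM with salt and 18.0 FPKM without, although these neighbouring copies share 31.4% and 34.0% of their transcripts, so reads may be split between them. Of 10 genes of mitosis and cytokinesis, 9 had ratios below 0 with salt, with a median of -0.70, and the kinase AUR1 passed the rule at 6.52 FPKM with salt and 14.4 FPKM without, though not with scaling to nuclear genes. In skip 9 of the same 10 had ratios above 0, or 8 with scaling to nuclear genes, and none passed, with a median of 0.19.

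Of 12 genes of the SIM and SMR list outside the 10, 9 had ratios below 0 with salt, 1 was higher by the rule and 0 were lower, with a median of -0.10. The higher one was SMR5, at 5.42 FPKM with salt and 0.325 FPKM without, a log2 ratio of 2.28, and in skip it was the lower one, at 1.66 FPKM in skip and 4.90 FPKM in wild type, a ratio of -1.15. The whole annotated transcript of SMR5 lies within AT1G07510 (FTSH10) on the opposite strand, which was at 17.3 FPKM with salt and 12.2 FPKM without, and at 23.1 FPKM in skip and 15.6 FPKM in wild type. The value of SMR5 is therefore uncertain. In skip 11 of the 12 genes had ratios below 0, with a median of -0.33, and only 9 of the 12 reached 1 FPKM in a group. Of all genes at or above 1 FPKM, 42.2% had ratios above 0 in skip, with a median of -0.08. The 8 genes of the KRP inhibitors and WEE1, which restrain the same kinases by other means, were all within the rule, with medians of -0.15 for salt and 0.20 for skip.

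**Figure D4:**
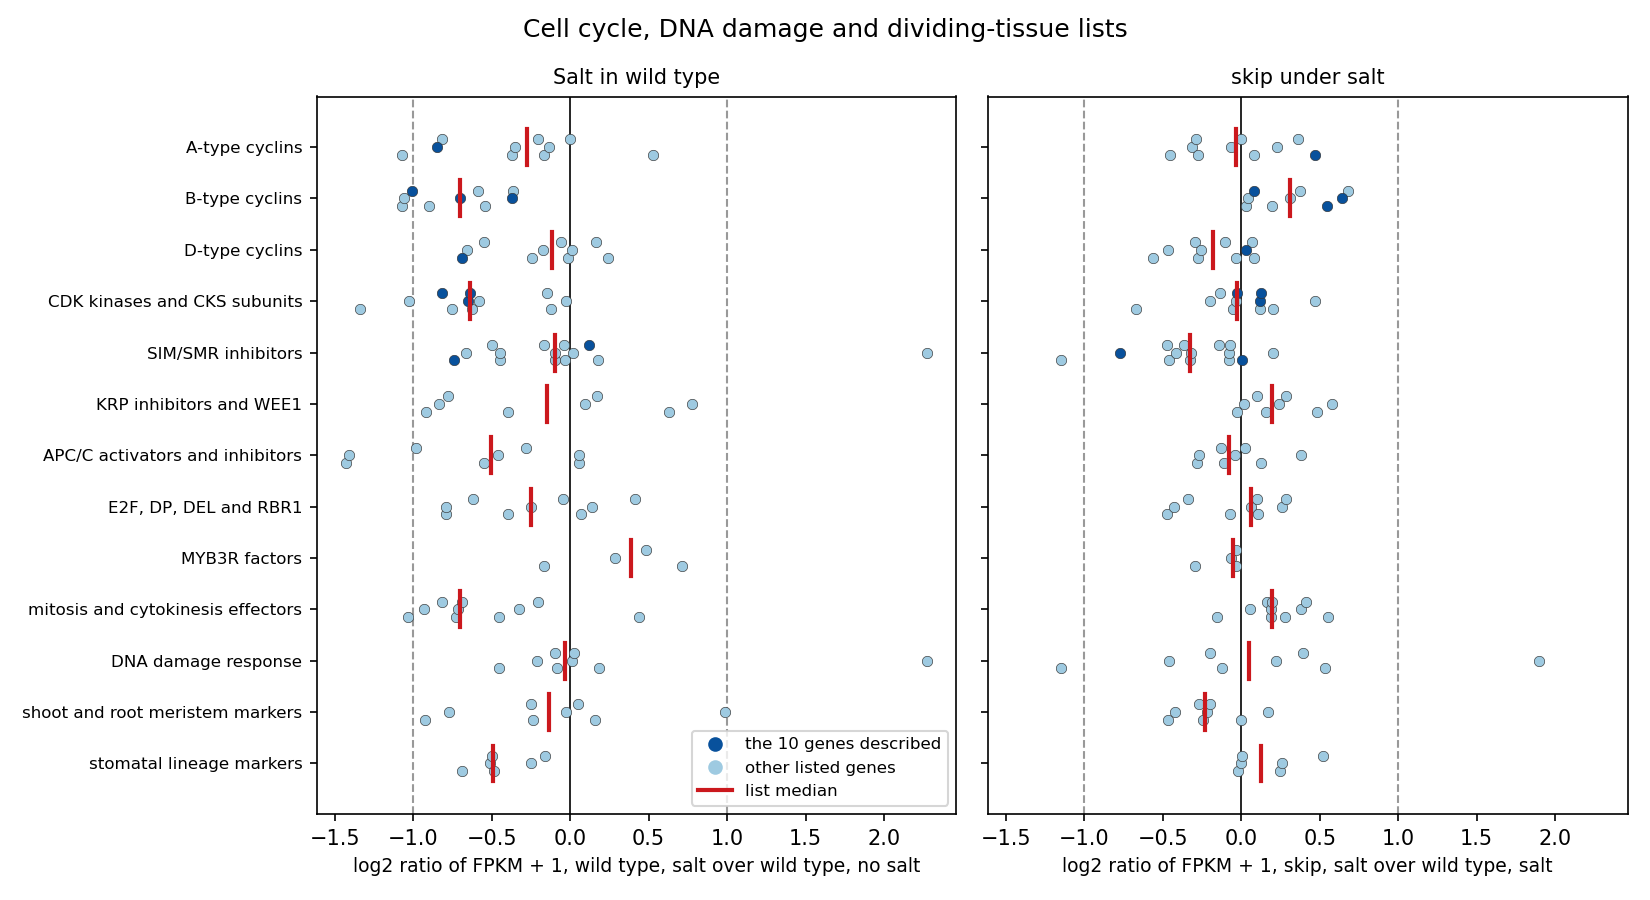
log2 ratios of FPKM + 1 for each gene of the cell cycle lists and of the stomatal lineage and meristem markers, with salt in wild type on the left and skip under salt on the right. Dark points are the 10 genes described here, pale points other listed genes, red bars list medians and dashed lines the 2-fold rule. The medians of the B-type cyclins and of the mitosis and cytokinesis list both lie at -0.70 with salt, and at 0.31 and 0.19 in skip.

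Markers of the stomatal lineage and of the meristems moved in part with these genes. All 6 markers of the stomatal lineage, whose cells divide in young leaves, had ratios below 0 with salt and none passed the rule, and their summed level was 33.3 FPKM with salt and 46.6 FPKM without. In skip the sum was 35.9 FPKM, against 30.2 FPKM in wild type, and 4 of the 6 ratios were above 0, or 3 with scaling to nuclear genes and 6 with centring. Most of that difference in the sum came from 1 marker, FAMA, at 13.3 FPKM in skip and 8.96 FPKM in wild type. Of 8 markers of the shoot and root meristems, 5 had ratios below 0 with salt and 3 above 0, and none passed. Their sums were 31.1 FPKM with salt and 37.4 FPKM without. PLT1 had the lowest log2 ratio, -0.92, with 1.05 FPKM with salt and 2.90 FPKM without. SHR had the largest fall in FPKM, with 6.21 FPKM with salt and 11.3 FPKM without, a ratio of -0.77. The root marker WOX5 was above 0, with 6.15 FPKM with salt and 2.61 FPKM without. Its log2 ratio of 0.98 passes the rule with scaling to nuclear genes. The shoot markers STM and CLV3 had ratios of 0.05 and 0.16. The level of CLV3 was very low, at 0.251 FPKM with salt and 0.123 FPKM without. PLT2 and SCR had ratios of -0.25 and -0.24. In skip 6 of the 8 were below 0, with sums of 25.4 FPKM in skip and 28.2 FPKM in wild type. WUS, which defines the organising centre of the shoot tip, was listed at 0 in both salt-treated groups and at 0.0202 FPKM in untreated wild type. The part of cell number in the values of the cyclins was not tested.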

How the data were processed

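The labels describe total RNA of whole plants, extracted with Trizol and made into libraries by a standard Illumina protocol. The submitters' processing notes name TopHat, Cufflinks and the TAIR10 genome, without versions. The 2 tables list 33557 genes, and their 4 columns of values were read as FPKM computed by the authors. The tables name no unit, so this was inferred from the values and from Cufflinks. No column was left unused. The deposited values carry no counts, errors or replicate values.

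With Python 3.11.15, pandas 2.3.3 and numpy 2.4.6, log2 ratios of FPKM + 1 were formed within each table, with no filter, and checked on simulated data. Salt-treated wild type differed between the tables by a factor of 1.105, within 0.1% for 24822 of 24882 genes. Low values of single-transcript genes over 800 nt were searched for steps of whole fragments. In the salt-treated columns 64.4% to 71.6% of low values lay within 0.15 of a whole step, and 39.0% in untreated wild type. A step fixed beforehand would give 30% by chance, but each step was fitted to these same values. Whole reads were not recovered, so no count test was run. The fragment numbers given are estimates from these steps.

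Gene models, symbols and sequences are from RefSeq (TAIR10.1), where 32810 of the 33557 identifiers were found. Its nuclear chromosomes are those of TAIR10. Shared sequence is the share of 50-base stretches of the longest transcript found in another gene on either strand. The 10 genes and the 14 lists, with 114 genes, were chosen with earlier results of these data known. Named from the lists are up to 4 genes per list and comparison past the rule with at least 1 FPKM in a group. CYCA3;3, WUS, WOX5, STM, CLV3, PLT1, PLT2, SCR, SHR, FAMA, FTSH10 and the overlapping loci were named after their values were seen. The promoter motif was chosen with the values known.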

Additional observations from a re-analysis of the deposited data

How the results depend on the processing

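No paired analysis was possible because each group is a single merged value, and for the same reason no replicate could be left out. The counts of genes past the 2-fold rule depend on small choices. With salt, 1 gene was lower, and 0 were lower with a pseudocount of 5 or with scaling to nuclear genes outside rRNA, since CYCB1;2 then had a ratio of -0.78 and -0.97. In skip, 2 of the 10 ratios were below 0, which became 1 with centring on the median gene and 4 with scaling to nuclear genes. The median ratio of the 10 genes ran from -0.76 to -0.54 for salt and from 0.02 to 0.16 for skip over all alternatives, and 9 of 10 ratios stayed below 0 for salt in each. Of 100 ratios of single genes under alternatives, 95 kept their sign and their side of the rule. The 95 include those under a filter at 1 FPKM, which could change no ratio because all 10 genes passed it. In skip, centring on the median gene moved ratios by 0.06, and scaling to nuclear genes shifted ratios of FPKM itself by -0.11 and those of FPKM + 1 by less. Low levels limit CYCB2;1 most.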

Other observations

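Genes of the DNA damage response were examined because CYCB1;1 is known to respond to DNA damage as well as to division. Of 8 genes, 1 was higher with salt and 7 were within the rule, and the higher one was SMR5. The median log2 ratio was -0.04. In skip 1 gene was higher and 1 lower, and the median of 0.05 turns to -0.04 with scaling to nuclear genes. GMI1, a gene induced by DNA breaks, was at 6.65 FPKM in skip and 1.06 FPKM in wild type, a log2 ratio of 1.90, and at 1.17 FPKM with salt and 1.503 FPKM without in wild type. The regulator of this response, SOG1, was at 6.19 FPKM in skip and 7.26 FPKM in wild type. BRCA1 was at 2.57 FPKM in skip and 1.71 FPKM in wild type. SOG1 and BRCA1 were named after their values were seen.

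The transcription factors of the MYB3R and E2F families, known regulators of cell cycle genes, stayed within the rule. Of 4 MYB3R genes, 3 had ratios above 0 with salt, with a median of 0.39, and all 4 were below 0 in skip, with a median of -0.05 that becomes 0.01 with centring on the median gene. Of 9 genes of the E2F, DP, DEL and RBR1 list, which controls DNA synthesis genes, 6 had ratios below 0 with salt, with a median of -0.25, and the median in skip was 0.06, or -0.02 with scaling to nuclear genes.

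Among 12531 genes outside the lists with an FPKM of at least 5 in all groups, those nearest to the median pair of ratios of the cyclin and CDKB genes, -0.70 for salt and 0.12 for skip, were AT3G44150, emb2737 (AT5G53860), NDPK1 (AT4G09320), AT5G44710 and AT3G26520. The distance was the Euclidean one over the 2 ratios, and the 5 genes lay within 0.0216 of that pair. NDPK1, a nucleoside diphosphate kinase, was at 319.9 FPKM with salt and 519.9 FPKM without, and at 310.7 FPKM in skip and 289.6 FPKM in wild type. With only 2 ratios per gene, such nearness is a description.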
